A study of Monopterus albus with 3 samples.

Results

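Genes cut into very many coding pieces were described from the deposited transcript models of the swamp eel (Monopterus albus, a fish whose gonad passes from ovary through ovotestis to testis). For each of the 63334 loci, the transcript with the longest open reading frame was taken as the representative, and its coding exons were counted. The loci kept had 30 or more coding exons and a span, from the first to the last coding base, under 100 kb. There were 362 of them, and 21 further loci had enough exons but spanned 100 kb or more. The rule used the models' structure and no expression value.

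RNA was taken from 3 gonad types, with 1 library each: the ovary of a female, the ovotestis of an intersex animal (labelled Hermaphrodite) and the testis of a male. Poly(A) RNA was sequenced on an Illumina HiSeq instrument, and neither the age of the animals nor how many gave RNA to a library is stated in the labels. One set of transcript models was deposited for the series, with 1 coverage value per transcript and no value per gonad. Which libraries entered the models is not stated. No comparison between ovary, ovotestis and testis could therefore be made, there were no replicates, and all values below are descriptions of 1 annotation, given with the spread across loci and with no test. Read counts per library were not used here, so the depth behind each model is unknown. None of the 63334 locus identifiers occurred in the RefSeq gene table, so that loci are named by their identifier and their place on the scaffolds of the authors' assembly, which the labels and the file do not tie to a named build.

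A coding exon is a stretch of a gene that is kept in the messenger RNA and translated, and an intron is the stretch between exons that is spliced out. The phase of an intron tells where it cuts the reading frame: phase 0 lies between codons, phase 1 after the first base of a codon and phase 2 after the second. An exon flanked by introns of equal phase has a length divisible by 3 and can be left out, or repeated in evolution, without shifting the frame. In vertebrate genes the introns nearest the start of the transcript are usually the longest, and genes with many exons commonly encode large proteins built from repeated units.

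Most of the 362 loci lay close to the lower limit. The number of coding exons had a median of 36 (quartiles 32 and 42) and reached 87. The coding sequence (CDS) had a median of 5133 bases, from 1491 to 15363, and the span a median of 29564 bases, from 7642 to 95628. For the 4595 loci with 10 to 29 coding exons and a span under 100 kb, the medians were 1947 coding bases and 11812 bases of span. Coding bases made up a median of 18% of the span in the first set and 17.5% in the second, while in loci with 2 to 9 coding exons the median was 26.1%.

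**Figure D1:**
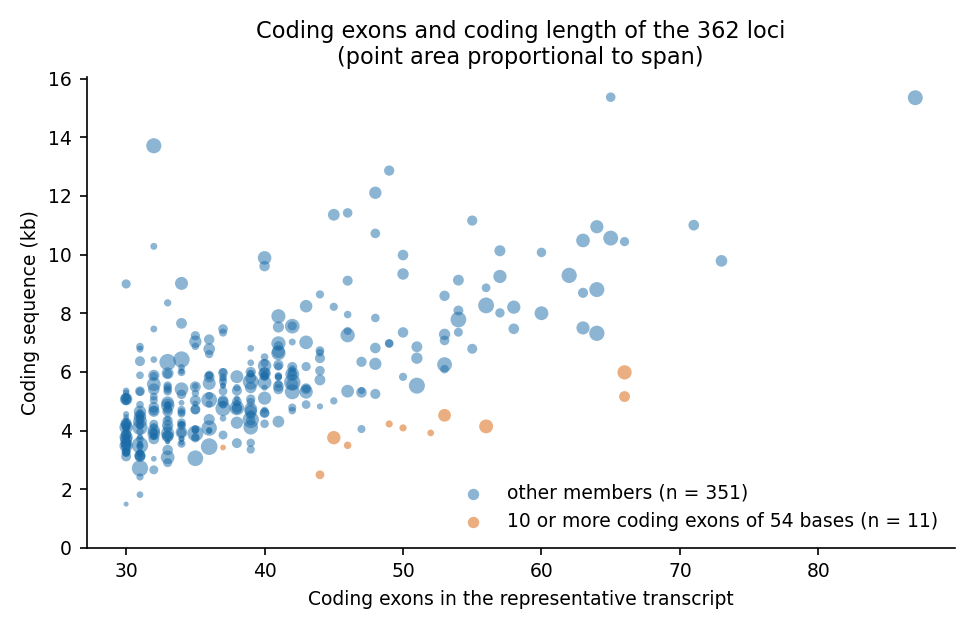
Coding length in kb against the number of coding exons, with 1 point for each of the 362 loci and point area proportional to span. The 11 loci with 10 or more exons of 54 bases (orange) lie low for their number of exons, and the locus with 87 exons stands alone at the right.

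The most exon-rich locus was CUFF167.131 on the minus strand of scaffold 94 (151696 to 228720), with 87 coding exons, a CDS of 15345 bases and a first coding intron of 8052 bases, its longest. Next came a locus of 73 exons on scaffold 371 (5782 to 52686) and one of 71 on scaffold 6 (6495947 to 6535563), followed by 3 loci of 66 exons, on scaffold 135 (909344 to 979718), scaffold 288 (528199 to 569266) and scaffold 90 (300019 to 329478). More exons did not always mean more coding sequence. The longest CDS, 15363 bases, belonged to a locus of 65 coding exons on the minus strand of scaffold 67 (1667514 to 1698984). It spanned only 31471 bases, with a median coding intron of 108 bases and none above 1055 bases. Counted from the left end of the scaffold, its coding exons began at exon 38 of the assembled transcript. On the minus strand, the exons numbered below 38 lay beyond the end of the reading frame. Why the frame ended before them was not tested. The third longest CDS, 13707 bases on scaffold 34 (5677156 to 5756125), was spread over 32 exons, of which the last alone held 6198 bases. The other 2 of the 5 longest were 12861 bases in 49 exons on scaffold 29 (4987487 to 5024051) and 12105 bases in 48 exons on scaffold 88 (514377 to 566985).

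Loci of like exon number differed more than 10-fold in span. The shortest, on scaffold 52 (485221 to 492862), packed 33 exons into 7642 bases with a median intron of 93.5 bases, and the other 4 of the 5 shortest, on scaffolds 208, 89, 60 and 23, spanned 7730 to 9379 bases. The longest, on scaffold 244 (38565 to 134192), held 36 exons in 95628 bases with a median intron of 1493 bases and a first intron of 15766 bases. The other 4 of the 5 longest, on scaffolds 4, 81, 62 and 229, spanned 93230 to 94114 bases. Within the set, exon number and span were only loosely related (Spearman rho 0.31 across 362 loci, which are not independent replicates).

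The limits of the rule cut through a continuum. The 41 loci with 30 coding exons had a median CDS of 3879 bases and a median span of 24190 bases, and the 45 loci with 29 coding exons, just outside, had medians of 3936 and 24266 bases. Their median coverages were 118 and 95.5, higher on the inner side of the limit. The locus of 95628 bases was the longest inside the span limit, and the shortest outside it, on scaffold 94 (951900 to 1052485), had 40 exons over 100586 bases.

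Introns became shorter along the transcript. The 13714 coding introns had a median of 287.5 bases (quartiles 128 and 753, range 50 to 43276). By order, the median was 869.5 bases for the first coding intron (quartiles 213 and 3048), 581 for the second, 422.5 for the third and 329.5 for the fourth. From the tenth to the twenty-ninth, the medians lay between 222.5 and 293.5 bases, with no further fall in a fixed direction. A smaller rise closed the series, with a median of 347.5 bases for the second last intron and 437.5 for the last. The same curve was seen in loci with 10 to 29 coding exons, at 733 bases for the first intron and 424 for the last.

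**Figure D2:**
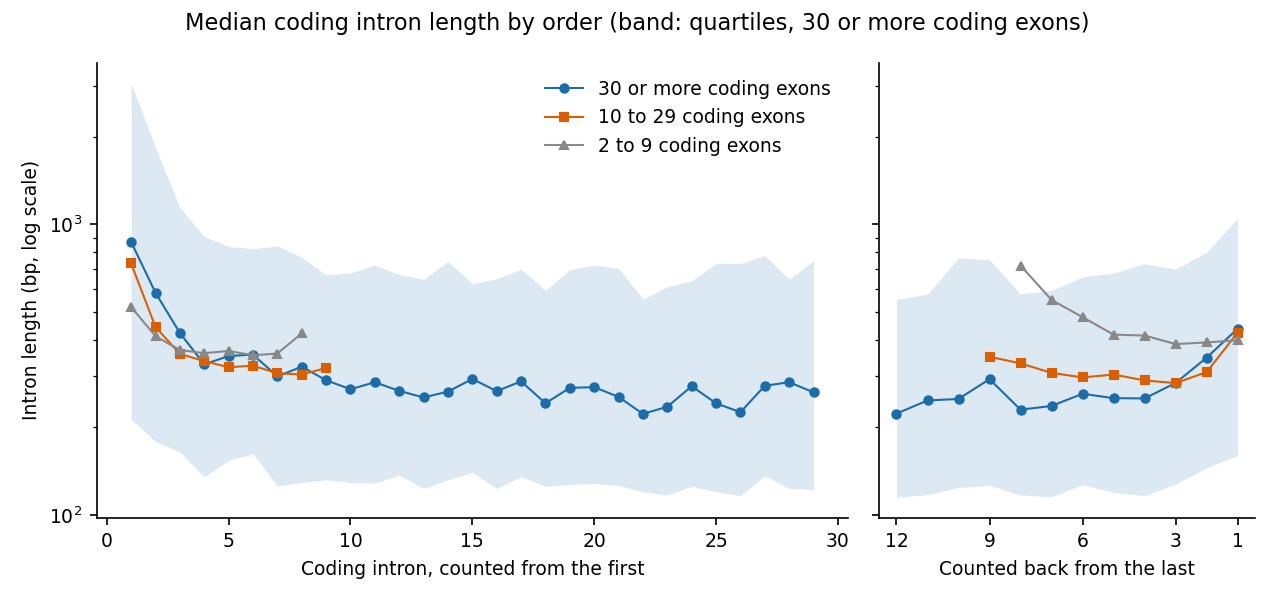
Median length of coding introns in bases (log scale) by order from the first intron (left) and back from the last (right), for loci with 30 or more, 10 to 29 and 2 to 9 coding exons. The shaded band gives the quartiles for 30 or more exons, and the median falls from 869.5 bases at the first intron to 329.5 at the fourth.

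The quartile ranges overlapped at every position. Both quartiles fell with the median, from 213 and 3048 bases at the first intron to 135.25 and 907.5 at the fourth. In 263 of 362 loci (72.7%) the first coding intron was longer than the median of the others, against 69.8% of the loci with 10 to 29 exons and 58.1% of those with 2 to 9. The first intron was the longest of all in 72 loci (19.9%), the second in 34, the third in 19 and the last in 12. It was the longest in 22.7% of loci with 10 to 29 exons. Among loci with 2 to 9 exons and 2 or more introns, the share was 37.3%. In loci with fewer exons, the longest intron is picked from fewer introns. The shares for the longest intron therefore depend on exon number and cannot rank the classes by how far first introns stand out. First introns held most of the extreme values. Of the 25 introns over 20 kb, each in a different locus, 15 were first introns, and so were the 3 longest, of 43276 bases on scaffold 34 (in the locus with the 6198-base last exon), 38582 bases on scaffold 182 (935335 to 1012632) and 36350 bases on scaffold 94 (3098742 to 3184031). In loci with 10 to 29 exons, 105 of 245 introns over 20 kb were first, and in those with 2 to 9, 225 of 377. Loci left out for their span had introns of up to 54111 bases.

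A first coding intron is not always the first intron of the transcript, since whole exons can lie before the start codon. The deposited exon rows keep the number each exon had in the assembled transcript, counted from the left end of the scaffold, which gives the order on the plus strand only. Of the 194 loci on that strand, the reading frame began in exon 1 of the transcript in 83, in exon 2 in 66 and in exon 3 or later in 45. Some of the 45 began far in, as at exon 16 on scaffold 9 (1463937 to 1489022) and exon 20 on scaffold 209 (819732 to 846197). Whether the exons before such a start belong to the same gene was not tested. The first coding intron then had a median of 1355 bases (quartiles 441 and 4713.5) where the frame began in exon 1, against 349 bases (143.25 and 1471.25) for exon 2 and 328 bases (181 and 1360) for a later exon. The second coding intron had medians of 783, 501 and 477 bases in the same groups, and all introns after it 297.5, 271 and 269 bases. Where the frame began in exon 2 or later, the first coding intron was therefore shorter in median than the second. The first coding intron was thus longest in median where it was also the first of the transcript, though the quartiles of the groups overlapped. In loci of 10 to 29 exons the corresponding first-intron medians were 982, 579 and 395 bases. The second-intron medians there were 489, 435 and 351.5 bases, below the first in each group.

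Introns in the models had a sharp lower edge. What part the settings of the tools that built the models played in it was not tested. Of the introns of the 362 loci, 12.5% were under 100 bases but 0.0438% were under 70, and the fullest 10-base class below 400 bases began at 90 bases, with 807 introns. The shares under 100 bases were 12.5% and 12% in loci with 10 to 29 and 2 to 9 exons, and the fullest class was the same. Above this edge, short introns were more frequent in the exon-rich loci, where 39.7% were under 200 bases against 36.5% and 33.4%. A span limit of 100 kb leaves less room for long introns in loci with more introns. This difference is therefore not independent of the rule. Without the limit, the median of introns after the first rose from 282 to 299 bases in the exon-rich loci.

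Exon lengths kept to a narrow band. The 13352 inner coding exons had a median of 127 bases (quartiles 94 and 169), and 91.8% were between 50 and 250 bases long. The median was 121 bases in loci with 10 to 29 exons and 127 in those with 2 to 9. Coding parts of the first and last exon had medians of 88.5 and 108.5 bases, counted only as far as the reading frame reached. Only 32 inner exons in the set were 1 kb or longer, and 62 were 30 bases or fewer, in 51 loci. The 3 largest exons held 6198 bases (scaffold 34, the last exon), 4503 bases (scaffold 88, exon 18 of 48) and 4471 bases (scaffold 146, 795217 to 824222, exon 20 of 30), so each of these loci combined 1 very large exon with a median inner exon of 123 to 154 bases. The smallest inner exon, of 12 bases, occurred in 2 loci, on scaffold 189 (385936 to 410125) and scaffold 234 (114443 to 130432).

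**Figure D3:**
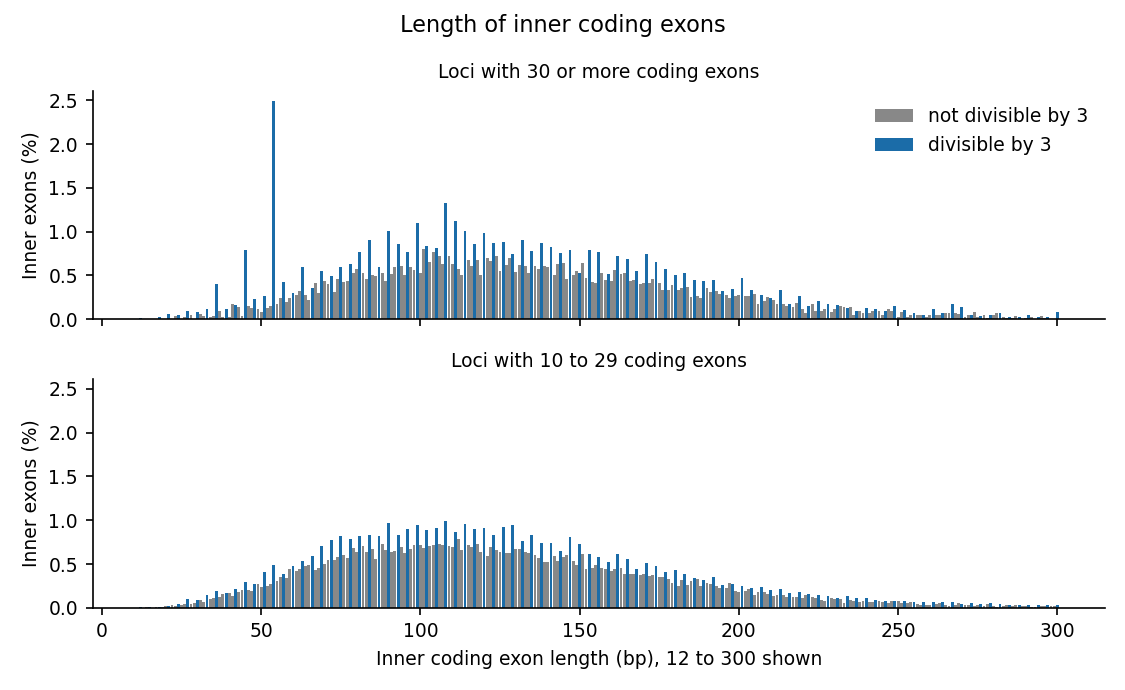
Share of inner coding exons in % at each length from 12 to 300 bases, with lengths divisible by 3 in blue, for loci with 30 or more (top) and 10 to 29 coding exons (bottom). Multiples of 3 stand above their neighbours in both, and the top panel has a spike at 54 bases (332 exons, 2.49%).

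Pooled over the set, frame-keeping exons were more frequent than in the pooled loci with fewer exons. Inner exons divisible by 3, which is the same as exons between introns of equal phase, made up 44.5% of the total against 39.9% in loci with 10 to 29 exons and 39.4% in those with 2 to 9. Phase 0 introns made up 53.2%, phase 1 26.5% and phase 2 20.3%, against 48.1%, 29.6% and 22.3% in loci with 10 to 29 exons. The excess lay in exons between a pair of phase 0 introns, at 30.8% of inner exons against 24.5%, whereas exons between phase 1 introns were at 9.39% against 10.2%. The median share per locus was 41.4% in the set and 38.5% in loci with 10 to 29 exons. By class, the share divisible by 3 was 41.8% for loci with 25 to 29 exons, just outside the rule, and 41.9% for 30 to 34. It was 39.8% for 35 to 39, 46.2% for 40 to 49 and 51.8% for 50 or more. The share was thus high in the loci with the most exons and not across the whole set. Per locus it ranged from 6.45% on scaffold 14 (4060593 to 4088301, 33 exons) to 100% in a pair of loci on scaffold 89, followed by 98.1% on scaffold 14 (1810643 to 1877676), 97.7% on scaffold 363 (58418 to 77945) and 97.6% on scaffold 37 (1699032 to 1725529).

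A few repetitive loci carried part of this excess. Long runs of introns of 1 phase marked them: 19 of the 362 loci had 20 or more introns of the same phase in a row, and 11 had 40 or more, while the median longest run was 5. Of the 4595 loci with 10 to 29 exons, 9 had a run of 20 or more, and the median longest run was 3. A run cannot exceed the number of introns, so these counts depend in part on exon number, and a run of 40 was not possible there.

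The most frequent inner exon length was 54 bases, with 332 exons, ahead of 108 bases with 177 and 111 bases with 150. Of the 332, 279 stood in only 11 loci, which held 16 to 33 exons of 54 bases each. No other locus of the set had more than 4, and no locus with 10 to 29 exons had 10. In vertebrates, exons of 54 bases and lengths related to it, starting and ending between codons, are known from the triple-helix regions of fibrillar collagen genes, where each exon encodes whole repeats of a 3-residue unit. The files give no gene name for these 11 loci.

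In the 11 loci, 51.5% of the 542 inner exons were of 54 bases, and 82.8% had a length of 45, 54, 99, 108 or 162 bases, against 3.19% in the other 351 loci. There were 67 exons of 45, 75 of 108, 21 of 99 and 7 of 162 bases. Lengths divisible by 9 made up 87.3% against 14.6%, and 95.8% of the 553 introns were in phase 0 against 51.3%. These loci were picked for their exons of 54 bases, so the figures describe them and test nothing. Without them, 42.4% of the inner exons of the remaining loci were divisible by 3, and phase 0 remained at 51.3%, both between the value of the whole set and that of loci with 10 to 29 exons. The 11 loci had 37 to 66 coding exons, and the shares by class of exon number were not recalculated without them.

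The highest number of 54-base exons, 33 of 51 inner exons, was found in CUFF69.189 on scaffold 253 (1010232 to 1066431). The largest share of multiples of 9, 95.2%, was in CUFF105.141 on scaffold 37 (1699032 to 1725529), whose 44 exons made up a CDS of only 2490 bases. Next in that share came scaffold 523 (90093 to 101615) with 94.3%, scaffold 253 with 94.1%, scaffold 58 (555631 to 617660) with 93.0% and scaffold 263 (206315 to 223994) with 91.7%. By the share of multiples of 54 itself, the leading 5 were on scaffolds 37, 253, 58, 523 and 466. The last of these (59554 to 75084) held 28 exons of 54 bases, and the loci on scaffolds 135, 288 and 14 (1810643 to 1877676) had the longest phase 0 runs of the group, of 58, 57 and 54 introns. Although their exons were alike, their introns were not. Span ranged from 11523 bases (scaffold 523) to 70375 bases (scaffold 135), the median intron from 129 to 824.5 bases, and coverage from 8.11 to 220 with a median of 37.0, against a median of 85.4 over all 362 loci.

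Other loci repeated another length. CUFF74.224 on scaffold 269 (878554 to 959170) had the longest run of the set, 61 phase 0 introns among 63, and 40 of its 62 inner exons were of 111 bases, with 7 each of 105 and 108 bases. CUFF121.283 on scaffold 448 (19337 to 41836) was the only locus with a long run in phase 2, 43 of 46 introns in a row, and 24 of its 45 inner exons were of 84 bases. The next longest phase 2 run in the set was of 5 introns.

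Runs in phase 1 were shorter. The longest were of 18 introns, on scaffold 168 (425276 to 490832, 31 exons) and scaffold 34 (1301476 to 1356639, 33 exons), with median inner exons of 162 and 174 bases. Exons between phase 1 introns are known as a common way in which domains of secreted and cell-surface proteins are encoded in vertebrates. In both loci, 174 bases was the most frequent length, with 4 and 5 exons.

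On scaffold 89 a pair of neighbouring loci on the minus strand, at 507723 to 523278 and 529656 to 538484, had phase 0 introns throughout, 30 of 30 and 29 of 29. Their inner exons were short, with median inner lengths of 60 and 43.5 bases and 36 bases as the most frequent length (8 of 29 and 12 of 28 inner exons). The second had the shortest CDS of the set, 1491 bases in 30 exons. Coverage was low in both, at 16.5 and 6.99, and the gap of 6377 bases between them contained the start of 1 other locus.

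The exon lengths of many loci recurred elsewhere in the assembly. Loci were compared by the lengths of their coding exons in transcript order, and a pair was counted where 10 or more lengths in a row were identical and the loci did not overlap (a limit chosen after values were seen). There were 73 such pairs among the 362 loci, involving 80 loci (22.1%) in 33 groups, and none of the pairs lay on 1 scaffold. The 11 loci rich in 54-base exons formed 1 group with 32 of the pairs, where repetition of a single length makes matches easier, and 69 loci were in the other 41 pairs. Counting partners anywhere in the annotation, 97 of 362 loci (26.8%) had one, against 5.38% of loci with 10 to 29 exons. Longer genes offer more stretches to match, so stretches were counted too: 7.62% of the 10818 stretches of 10 exons in the set recurred in another locus, 4.87% without the 11 loci, and 2.38% of the 29259 stretches in loci with 10 to 29 exons. Stretches with a first or last coding exon, cut at the ends of the reading frame, were included and weigh more in loci with fewer exons. The comparison therefore allows for gene length only in part.

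The longest match outside the 54-base group joined CUFF80.287 on scaffold 29 (minus strand, 3376058 to 3399878) and CUFF98.244 on scaffold 342 (plus strand, 682619 to 736467). Both had 40 coding exons, and 35 in a row, from exon 5 to exon 39, were equal in length, together 5153 bases. Outside the run, exons 2 and 3 were equal as well, exon 1 had 342 and 345 bases, exon 4 had 100 and 103, and exon 40 had 136 and 160. None of the 34 introns within the run was equal in length, and together they held 7314 bases in the first locus and 17246 in the second. Intron lengths at the same positions were unrelated between the loci (Spearman rho 0.01 over 34 introns).

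**Figure D4:**
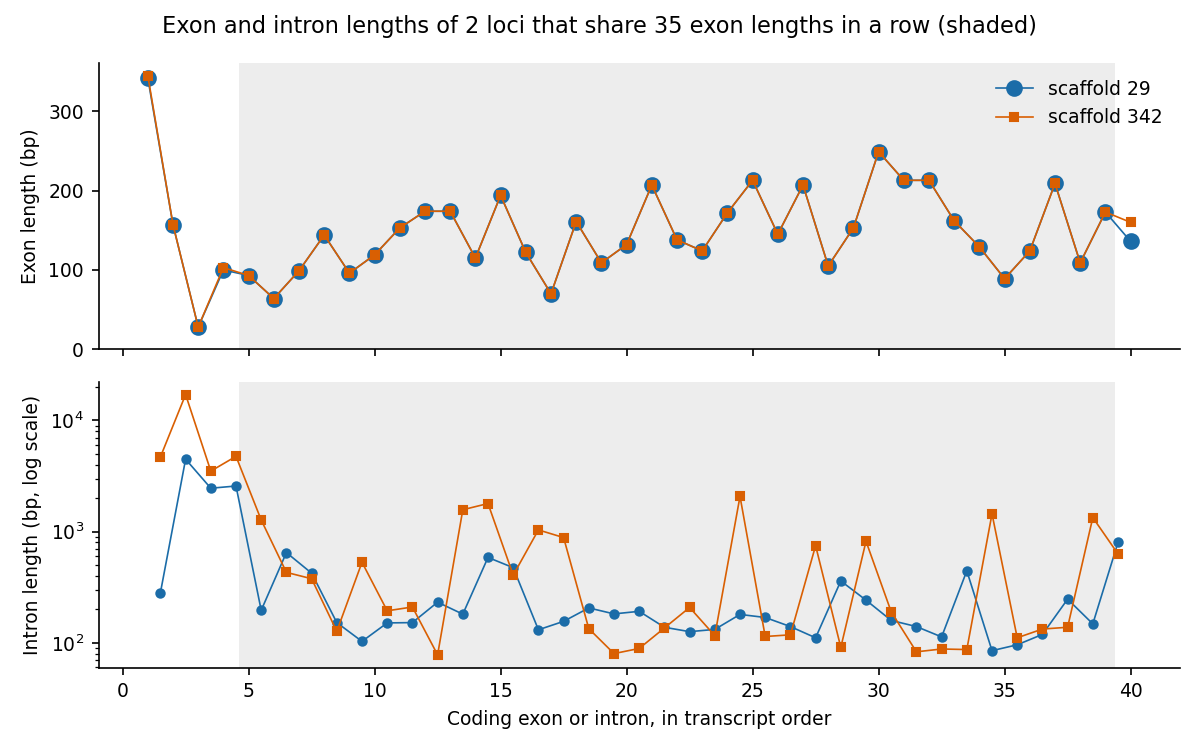
Exon length (top, bases) and intron length (bottom, bases, log scale) by order in the transcript for the loci on scaffold 29 (blue) and scaffold 342 (orange), with the 35 exons of equal length shaded. Exon lengths coincide while the introns within the shading sum to 7314 and 17246 bases.

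The same exon series extended to loci with 41 exons on scaffold 108 (357279 to 376680) and 36 exons on scaffold 192 (384507 to 405476), which shared runs of 24 and 15 exons with the locus on scaffold 29. The 4 loci of this group had coverages of 52.5 (scaffold 29), 81.6 (scaffold 342), 943 (scaffold 108) and 35.3 (scaffold 192), and the locus on scaffold 108 was thus covered far more deeply than the others. At aligned positions, the locus on scaffold 29 had the same exon length as that on scaffold 342 at 37 of 40 exons, that on scaffold 108 at 34 of 40 and that on scaffold 192 at 21 of 35. Other long matches joined scaffolds 61 and 66 (28 exons), scaffolds 9 and 90 (25 exons), scaffolds 94 and 220 (25 exons) and scaffolds 46 and 124 (22 exons). In the pair on scaffolds 9 and 90, coding exons 2 to 26 of a locus with 33 coding exons matched those from number 33 onwards of a locus with 66. The reading frame of the locus on scaffold 9 began only at exon 16 of its assembled transcript.

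Across all 73 pairs, 2 of 1117 introns at matched positions had equal lengths. All 1117 matched introns agreed in phase, which follows for a whole run once its first intron agrees. In the 41 pairs outside the 54-base group, the summed introns of the run were a median of 1.83-fold larger in 1 locus than in the other, from 1.00 to 7.77, with a ratio over 2 in 17 pairs. Spearman's rho of matched introns had a median of 0.10, from -0.43 to 0.67, over runs of 10 or more exons.

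Exon-rich loci mostly had several transcript models. In 248 of the 362 loci (68.5%) more than 1 coding transcript was listed, against 60.2% of loci with 10 to 29 exons and 36.7% of those with 2 to 9. With the limit lowered to 25 or more coding exons, the share was 69.2%, so it did not change at the limit of 30. Of the 362 loci, 139 had 2 transcripts, 81 had 3, 26 had 4 and 2 had 5. The 387 transcripts other than the representatives had a median of 75.6% of the representative's coding exons (quartiles 36.5 and 97.5) and 76.8% of its CDS, and a median of 93.1% of their exons were identical to one of the representative. Of these transcripts, 174 had 30 or more coding exons themselves, 213 had fewer and 32 had a single coding exon. The longest reading frame was also the best covered transcript in 130 of the 248 loci.

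The loci with 5 transcripts lay on scaffold 186 (2679006 to 2770919) and scaffold 58 (2439733 to 2463200). The first had transcripts of 34, 28, 24, 24 and 24 coding exons with coverages between 19.9 and 26.2, which were nearly level. In the second, transcripts of 49, 50, 50 and 37 exons had coverages from 83.2 to 126, and a transcript of 1 coding exon with 87 coding bases had 184. Among the loci with 4 transcripts, the one of greatest span, on scaffold 94 (3098742 to 3184031), ranged from 1 to 35 coding exons with coverages of 7.0 to 14.4. In the locus with 87 exons the other transcripts had 57 and 40, with coverages of 29.9 and 121 against 130.

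Some differences between transcripts lay inside the reading frame. Another transcript left out an inner exon of the representative, within the coding part of both, in 92 cases over 60 of the 248 loci with several transcripts. In loci with 10 to 29 exons there were 630 cases over 430 of 2764 such loci. Transcripts other than the representatives numbered 387 and 3958 in these sets, and loci with more exons offer more to skip. Of the 92 skipped exons, 76 (82.6%) were divisible by 3. The share was 65.4% of the 630 in loci with 10 to 29 exons, and 44.5% of all inner exons of the set. A skipped exon of another length shifts the frame and tends to end it, and an exon was counted only where the frame ran past it, so the count favours multiples of 3 by its construction. In 225 exons 1 end differed between transcripts, by exactly 3 bases in 55 (24.4%) and by a multiple of 3 in 171. The shares were similar in loci with 10 to 29 exons. There 1306 exons had 1 shifted end, by 3 bases in 312 (23.9%) and by a multiple of 3 in 937.

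Coverage, the mean read depth that Cufflinks gives for a transcript, was lower in the exon-rich loci than in those with 10 to 29 exons. Over the 362 representatives it had a median of 85.4 (quartiles 37.7 and 180), against 135 (42.2 and 289) for 10 to 29 exons and 50.8 (9.72 and 254) for 2 to 9. The quartile ranges overlapped widely. By classes of exon number the median was highest, 139, at 10 to 14 exons, and stood at 123 at 25 to 29, 96.9 at 30 to 34, 86.6 at 35 to 39, 82.5 at 40 to 49 and 59.4 at 50 or more. Summed over all transcripts of a locus the medians were 171 in the set and 223 for 10 to 29 exons, so the lower coverage was less marked. Within the set, coverage was only weakly related to exon number (Spearman rho -0.11) or to span (rho -0.13). What part transcript length or the splitting of reads among transcripts played in these values was not tested.

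**Figure D5:**
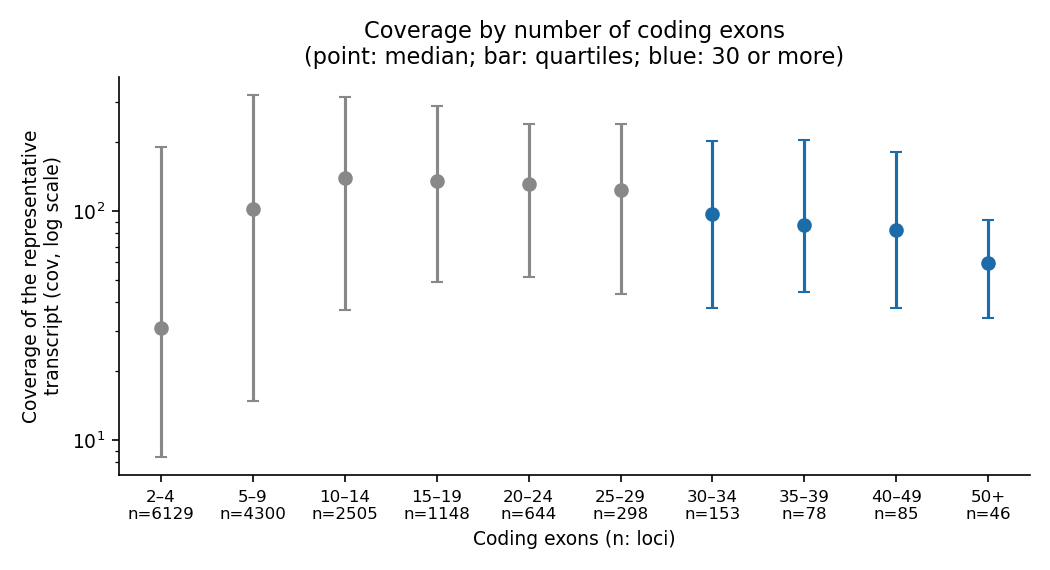
Coverage of the representative transcript (log scale) by number of coding exons for loci under 100 kb, with points at the median and bars from the first to the third quartile. The median is 139 at 10 to 14 exons and 59.4 at 50 or more, and the bars of all classes overlap.

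The best covered locus was CUFF131.406 on scaffold 50 (1889527 to 1906581), with 30 exons and a coverage of 1786, or 3551 over its 3 transcripts. It was followed by loci on scaffold 13 (4425744 to 4438473) at 1226, scaffold 247 (181945 to 205223) at 1039, scaffold 108 (357279 to 376680) at 943 and scaffold 209 (819732 to 846197) at 630. The spans of these 5 were 12730 to 26466 bases, below the set's median of 29564, and none had an intron above 2389 bases. The least covered were on scaffold 51 (872151 to 907291) at 5.85, scaffold 28 (1653159 to 1667046) at 6.11, scaffold 103 (1950114 to 1961985) at 6.55, scaffold 89 (529656 to 538484) at 6.99 and scaffold 168 (425276 to 490832) at 7.90. Their spans ranged from 8829 to 65557 bases, so low coverage was found in short and long loci alike. Each of these 5 had more than 1 transcript, and summed over the locus their coverages were 14.3 to 33.2. By that sum the lowest value, 8.30, belonged to a locus with a single transcript on scaffold 23 (835610 to 851132), named after its value was seen.

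The loci were widely scattered over the assembly. They lay on 191 scaffolds, of which 106 had a single one, 47 had 2 and 14 had 3. The largest number, 9, was on scaffold 6, which also carried 200 of the loci with 2 or more coding exons, and scaffolds 12, 14, 29, 52 and 61 had 6 each. Over the series, 2.33 exon-rich loci came with each 100 loci of 2 or more coding exons. On scaffolds whose last annotated base was at 1 Mb or beyond lay 75.1% of the exon-rich loci and 69.6% of the loci with 2 or more coding exons. There were 194 on the plus and 168 on the minus strand, and 5 lay within 5 kb of the first base or the last annotated base of their scaffold.

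Neighbours within a scaffold were mostly far apart, with a median gap of 404149 bases over 171 pairs of successive loci, but 9 pairs lay within 5 kb, 5 of them on the same strand. The closest were 2 loci on the minus strand of scaffold 6, of 37 exons (2716343 to 2738858) and 39 exons (2739100 to 2754791), separated by 241 bases. Their coverages were 537 and 88.3. On scaffold 250 loci of 36 and 38 exons (1871258 to 1956624 and 1957004 to 2015128) were separated by 379 bases, with coverages of 148 and 104. On scaffold 229 the gap was 1112 bases, between loci of 39 and 34 exons (633169 to 726398 and 727511 to 758708), with coverages of 10.8 and 15.6. All 3 pairs were on the minus strand with no other locus beginning in the gap, and whether each pair is 1 gene or 2 was not tested.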

How the data were processed

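The authors deposited 1 table of transcript models with the coding part of each exon, its frame and, per transcript, an FPKM and a coverage value. Cufflinks 1.1.0, TopHat 1.3.3 and Bowtie 0.12.7 are listed by the submitters, with no role given, while the study's methods name a later Cufflinks release. The sources used here do not say which libraries entered the models, so coverage and FPKM cannot be assigned to a gonad. Introns were the gaps between the coding exons of 1 transcript. The frame column equalled the frame from summed exon lengths in all 362 loci, and 360 had a CDS divisible by 3, to which phase shares were limited. The reading of models was tested on simulated data. Named loci were the extremes of exon number, CDS, span, coverage, intron and exon length, transcripts, equal-phase exons and multiples of 9 or 54, the closest pairs and the edges of the rule. Loci with long phase runs or shared exon series, the smallest exons and the lowest equal-phase share were chosen after their values were seen. The set and the lists were chosen with earlier results of these data known. Alternatives changed the exon and span limits, the representative transcript, joined rows, overlapping loci and the coverage measure. Python 3.11.15, numpy 2.4.6 and scipy 1.17.1 were used.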

Additional observations from a re-analysis of the deposited data

How the results depend on the processing

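The values rest on 1 annotation with no replicates and unknown depth, in which a coding exon missed at either end changes the order of introns and a locus split in assembly counts as 2. No paired analysis was possible because each gonad type has 1 library and the files give no value per gonad. Of 118 alternative values, 88 moved by less than the 95% interval of the value reported, or by less than 1.5 times for counts, and 30 moved more. The intervals of exon and intron shares count exons and introns as independent although they cluster by locus, so they are too narrow. Changing the lower limit changes the set by construction. With 25 or more coding exons, 660 loci had a median CDS of 4260 bases, a median span of 24672 bases, 43.6% of inner exons divisible by 3, 52.2% phase 0 introns and a median coverage of 96.9. With 40 or more, 131 loci on 95 scaffolds had a median CDS of 6504 bases, a median span of 36030.0 bases, a median later intron of 266.5 bases, a median inner exon of 130.0 bases, 48.6% of inner exons divisible by 3, 55.4% phase 0 introns, 74.0% with several transcripts and a median coverage of 74.6. Without a span limit, the median of introns after the first was 299 bases, and under 50 kb the medians were 24184 bases of span, 600.0 for the first intron and 235 for later introns. With the best covered transcript as representative, the median coverage was 110.5. Summed over transcripts, it was 171, which was 76.9% of the median for loci with 10 to 29 exons, against 63.1% for the representative and 67.7% with FPKM. The ratio of FPKM to coverage itself ranged from 2.00 to 13.6 among the 362 representatives. It was similar, where compared, among loci sharing the number before the point in their identifier. CUFF140.597 and CUFF140.189 had FPKM of 196 and 176 at coverages of 74.5 and 66.9. CUFF105.204 and CUFF105.141 had FPKM of 312 and 151 at coverages of 27.9 and 13.4. FPKM and coverage were thus not on 1 common scale across loci, and the 67.7% pools loci of unlike ratio. The source of the difference was not tested. On scaffolds reaching 1 Mb, 119 held such loci. A pair of alternatives was added after seeing the data: without the loci with 10 or more exons of 54 bases, the median inner exon was 130.0 bases, 42.4% of inner exons were divisible by 3 and 51.3% of introns were in phase 0, and with the plus-strand loci whose frame began in exon 1, the first intron had a median of 1355 bases, later introns 303 bases, and the first exceeded the median of the others in 80.7% of loci. The first coding intron stayed longer in median than later ones under each of these settings. Joining rows under 30 bases apart and counting overlapping loci once changed no value, and these values are among the 88. Joining could change none, since the shortest coding intron of the set had 50 bases.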

Other observations

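Exon series of the exon-rich loci also recurred in loci outside the set. There were 44 pairs between 37 of the 362 loci and 30 others. Of the 37, 17 had no partner within the set, and the outside loci had as few as 12 coding exons. A single pair of the 44 lay on 1 scaffold. Some outside loci were close neighbours: those on scaffold 362 at 811167 to 834722 and 835877 to 862754 matched 1 locus on scaffold 354 (309115 to 389466), from its exons 7 and 27. Whether such neighbours are parts of 1 gene was not tested, so the number of partners may be too high. The longest match, of 20 exons and 2543 coding bases, joined exons from number 19 of a locus with 38 exons on scaffold 6 (3161405 to 3201474) with exons from number 2 of a locus with 21 exons on scaffold 18 (287344 to 298639). Of its 19 matched introns, 2 were equal in length, and they summed to 9985 and 8009 bases. The coverages were 115 and 76.6.

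One outside pair differed from the others in its introns. A locus with 65 exons on scaffold 6 (2036143 to 2113004) and a locus with 14 exons on scaffold 41 (4847845 to 4855919) shared 12 exon lengths, and all 11 matched introns were equal in length as well, with sums of 4427 bases in both. In none of the other outside pairs were more than 2 matched introns equal. Coverage was 66.9 and 88.0, and whether a single stretch of genome was placed on both scaffolds was not tested.

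A locus with 22 exons on scaffold 143 (392211 to 399039) shared 17 exon lengths with each of the loci on scaffolds 523 and 263 that are rich in 54-base exons, although it lay outside the set for its exon number. Its coverage was 287, against 8.11 and 72.2. The only outside partner with 30 or more coding exons was the 56-exon locus on scaffold 15 (2119816 to 2293204), left out for its span of 173389 bases, which shared 10 exon lengths with a locus on scaffold 237 (378573 to 416680).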
